A study of Mus musculus with 4 samples.

Results

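The annexin genes Anxa1, Anxa2, Anxa3, Anxa4, Anxa5, Anxa6, Anxa7 and Anxa11 were chosen by name as members of 1 family, and 8 of 8 were measured among 18782 genes. Expression was measured on Affymetrix arrays in alveolar macrophages, which live in the air spaces and clear surfactant, sorted from lungs of adult mice on a C57BL/6 background. WT mice were PPARg fl/fl, so they carried floxed Pparg alleles without Cre. KO mice were CD11cCre/PPARg fl/fl, with the same floxed alleles plus Cre under the CD11c promoter, which is active in alveolar macrophages and also in dendritic cells. Each group had 2 arrays, and each array held the pooled cells of 2 mice. WT cells are labelled as mature, and were sorted as CD11b-low. KO cells are labelled as arrested at an immature stage, and were sorted as CD11b-high, so genotype and CD11b gate cannot be told apart in any difference given here. The series title places the comparison in the question of how PPARγ, a lipid-sensing nuclear receptor, controls the identity of these cells.

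Annexins are soluble proteins that bind acidic phospholipids, among them phosphatidylserine, when calcium rises. They share a conserved core that binds the membrane, and differ in an amino-terminal tail that binds partners such as S100 proteins. In macrophages they are known for work on endosomes and phagosomes, for the repair of torn plasma membrane, and outside the cell for plasminogen binding (annexin A2) and for signalling through formyl peptide receptors (annexin A1).

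Promoter sequences were taken from RefSeq on the GRCm38.p6 build, as the 250 bases before the annotated start, and were found for 6 of 8 members. Shown are Anxa2, the member that fell in KO, Anxa11, whose KO arrays also lay below both WT arrays, and Anxa5, whose level was close in the groups. They lie at chr9:69453433-69453682, plus strand (Anxa2), chr14:25841905-25842154, plus strand (Anxa11) and chr3:36475888-36476137, minus strand (Anxa5). They run 5′ to 3′ on the strand of the gene, and capitals mark any match, on either strand, to 1 of the 6 motifs that were searched.
Anxa2 promoter: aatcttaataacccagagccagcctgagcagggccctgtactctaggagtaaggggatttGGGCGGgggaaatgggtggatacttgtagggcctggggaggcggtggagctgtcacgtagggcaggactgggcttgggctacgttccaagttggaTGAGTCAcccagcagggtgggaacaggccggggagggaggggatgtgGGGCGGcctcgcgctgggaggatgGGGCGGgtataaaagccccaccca
Anxa11 promoter: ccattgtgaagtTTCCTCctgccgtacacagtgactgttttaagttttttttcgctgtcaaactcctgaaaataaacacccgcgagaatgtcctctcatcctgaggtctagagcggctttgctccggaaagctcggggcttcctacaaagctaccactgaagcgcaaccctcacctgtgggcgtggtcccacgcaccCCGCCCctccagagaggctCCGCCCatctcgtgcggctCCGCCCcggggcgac
Anxa5 promoter: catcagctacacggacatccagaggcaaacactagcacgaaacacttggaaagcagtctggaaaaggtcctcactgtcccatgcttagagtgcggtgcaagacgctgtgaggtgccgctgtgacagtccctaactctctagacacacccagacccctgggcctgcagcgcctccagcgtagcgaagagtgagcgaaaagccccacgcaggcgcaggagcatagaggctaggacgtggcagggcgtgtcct

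The motifs were the PPAR-RXR element DR1 (AGGTCA repeated after 1 base, found in 0.0335% of 32851 promoters of the same length), its half-site (AGGTCA, 14.0%), the AP-1 site (TGANTCA, 6.75%), the GC box (GGGCGG, 32.7%), the ETS core of PU.1 sites (GAGGAA, 23.3%) and the glucocorticoid response element (AGAACA, 3 bases and TGTTCT, 0.00913%). DR1 holds its half-site, and no match in the promoters of the members overlapped another. In the Anxa2 promoter 3 GC boxes and 1 AP-1 match were found, the AP-1 match from base 95 to base 89 before the start. The Anxa11 promoter held 3 GC boxes and 1 ETS core, and the Anxa5 promoter held none of the 6 motifs. The Anxa1 promoter held 1 ETS core and no other match. None of the 6 members with a promoter had a match to DR1, to its half-site or to the glucocorticoid element in these windows. The promoters of Anxa2 (62.4% G and C), Anxa11 (58.0%) and Anxa5 (58.8%) lay above the median of all promoters, 52.4%. Such a match is a string of letters and says nothing of binding in these cells.

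Of the 8 annexins, Anxa3 and Anxa6 were higher in KO, Anxa2 was lower, and 5 were not past the test. Levels are log2 expression values, a difference is the KO mean minus the WT mean on that scale, and a gene was past the test when its limma p, adjusted over all genes by the Benjamini-Hochberg method, was under 0.05. Over all genes 14.3% were past the test, 7.41% higher and 6.86% lower in KO. The lists named below are short, and none was tested against these shares. The median difference of the 8 annexins was 0.15, and that of all genes was -0.015. The groups did not overlap for 6 of 8 annexins, which was also so for 55.3% of all genes. For 4 annexins both KO arrays were above both WT arrays, as for 25.3% of all genes, and for 2 both were below, as for 30.0%.

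**Figure D1:**
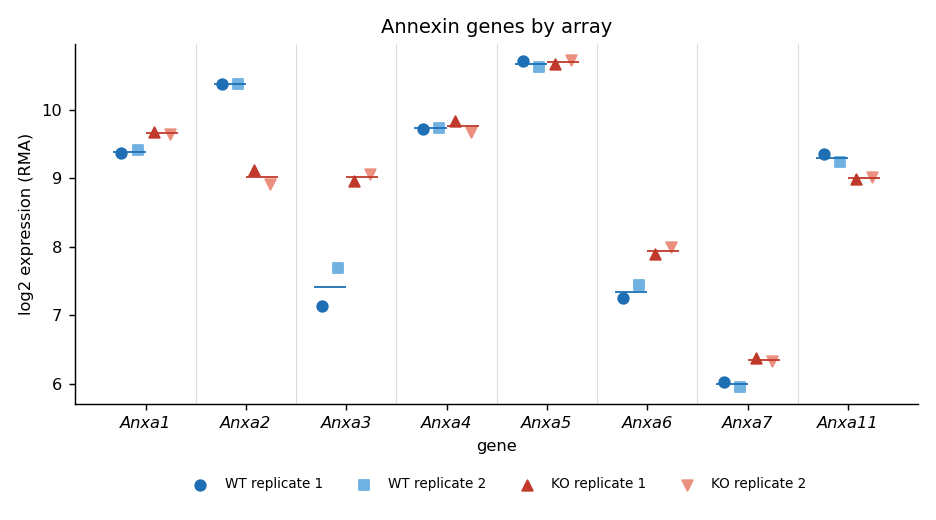
Log2 expression of the 8 annexin genes (horizontal axis) on each of 4 arrays, with WT in blue, KO in red and a short line at each group mean. Anxa2 drops from 10.38 on both WT arrays to about 9.0, Anxa3 climbs to about 9.0, and the points of Anxa4 and Anxa5 lie together.

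Anxa2 encodes annexin A2, which forms a complex with the small protein S100A10 that binds plasminogen at the cell surface and links membranes to actin. It read 10.38 in WT replicate 1 and 10.38 in WT replicate 2, against 9.118 in KO replicate 1 and 8.911 in KO replicate 2. Both KO arrays lay below both WT arrays, and the gap between the groups was far wider than the gap within either. Anxa2 fell by 1.37 ± 0.11 (SE; adjusted p = 7.86e-04), a 2.58-fold decrease with a 95% interval of the log2 difference from -1.63 to -1.10. Of all genes, 3.19% differed by as much in either direction. The file gives values above 10 to 2 decimals, so the equal WT readings carry that rounding. When any 1 array was left out the difference stayed between -1.47 and -1.26 with adjusted p from 0.0026 to 0.0086. In bulk samples, here and below, fewer cells with a transcript and less of it per cell cannot be told apart.

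Anxa3 showed the opposite change and the largest rise of the family. It encodes annexin A3, an abundant protein of neutrophils and a known component of monocytes and macrophages. It read 7.127 and 7.688 in WT replicates 1 and 2, and 8.960 and 9.058 in KO replicates 1 and 2. Both KO arrays were higher than both WT arrays, while the WT arrays stood 0.56 apart and the KO arrays 0.10 apart. The mean rose from 7.41 ± 0.40 (SD, n = 2) to 9.01 ± 0.07 (SD, n = 2), a difference of 1.60 ± 0.19 (SE; adjusted p = 0.0030) and a 3.03-fold increase, with a 95% interval from 1.15 to 2.06. The difference was 1.32 without WT replicate 1 and 1.88 without WT replicate 2, and adjusted p stayed under the threshold when any 1 array was left out (0.000478 to 0.0334). Of all genes, 2.42% differed by as much.

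Anxa6 encodes annexin A6, a larger annexin with a duplicated core that is known for cholesterol transport from late endosomes. It read 7.245 and 7.437 in WT and 7.888 and 7.990 in KO, again with no overlap. Anxa6 rose by 0.60 ± 0.11 (SE; adjusted p = 0.018), a 1.51-fold increase. The call held without WT replicate 2 (0.69; adjusted p = 0.0219) but not without any of the other arrays. Adjusted p rose to 0.0785 when WT replicate 1 was dropped, to 0.0724 when KO replicate 1 was dropped and to 0.105 when KO replicate 2 was dropped. A second, dim probe set named for Anxa6 read 2.543 and 2.668 in WT and 2.699 and 2.507 in KO, below the array median of 3.137, and the mean of both probe sets differed by 0.30 (adjusted p = 0.125).

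**Figure D2:**
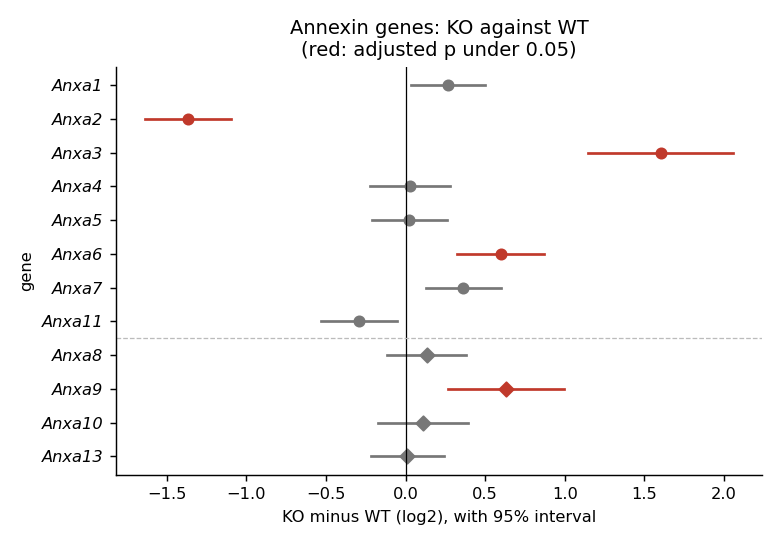
Difference between KO and WT on the log2 scale (horizontal axis) with its 95% interval for the 8 annexin members (circles) and the other 4 annexin genes measured (diamonds), red where adjusted p was under 0.05. Anxa2 stands alone at -1.37, Anxa3 lies at 1.60, and the intervals of Anxa4 and Anxa5 include 0.

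Anxa1, the glucocorticoid-inducible annexin that dampens inflammation, read 9.360 and 9.417 in WT and 9.669 and 9.641 in KO. Both KO arrays were higher, but the difference of 0.27 ± 0.09 was not past the test (adjusted p = 0.133; 0.0119 with an intensity trend in the variance). Anxa7 encodes synexin, an annexin that binds the calcium sensor sorcin. It read 6.029 and 5.943 in WT and 6.372 and 6.325 in KO, a difference of 0.36 ± 0.10 (adjusted p = 0.0599; 0.0367 when dim genes were left out of the fit). Anxa11, whose protein binds the calcium sensor ALG-2 and tethers RNA granules to lysosomes, read 9.345 and 9.238 in WT and 8.987 and 9.014 in KO. Its difference was -0.29 ± 0.10 (adjusted p = 0.116; 0.0151 with an intensity trend), and a second probe set named for it read 4.481 and 4.271 in WT against 4.307 and 4.518 in KO. For each of these 3 genes the arrays did not overlap and the difference was under 0.4 on the log2 scale.

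Anxa4 and Anxa5 were the 2 members whose arrays overlapped. Anxa5 encodes the phosphatidylserine-binding annexin used as a stain for apoptotic cells, and read 10.71 and 10.63 in WT and 10.67 and 10.72 in KO. Its difference was 0.03 ± 0.10 (SE; adjusted p = 0.911) with a 95% interval from -0.21 to 0.26. Anxa4, a membrane-binding annexin also prominent in epithelia, read 9.719 and 9.731 in WT and 9.830 and 9.679 in KO. Its difference was 0.03 ± 0.10 (SE; adjusted p = 0.900) with an interval from -0.22 to 0.28. These intervals do not reach the size of the changes of Anxa2 or Anxa3, and with each array's median set equal both differences became -0.01. Anxa5 lay near the top of the scale, and whether signal there understates a change was not tested.

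**Figure D3:**
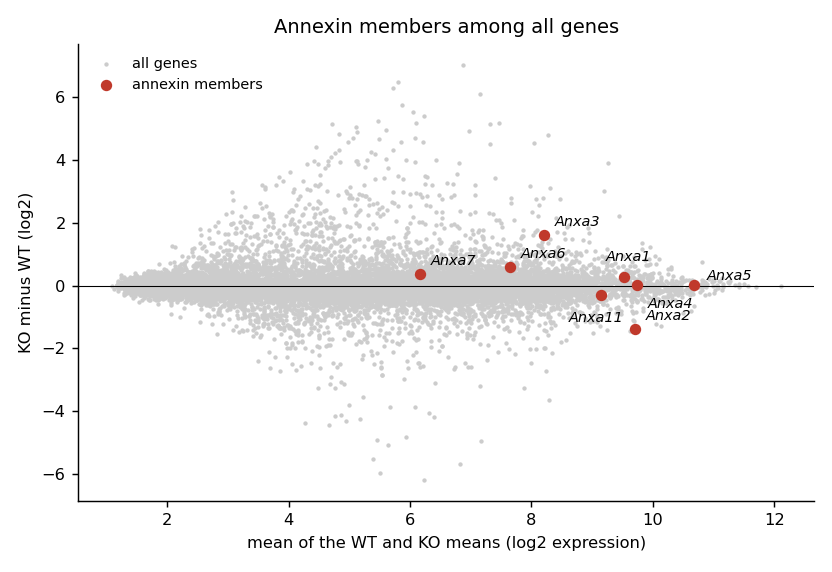
KO minus WT on the log2 scale (vertical axis) against the mean level of a gene (horizontal axis) for all 18782 genes in grey and the 8 annexin members in red. All 8 members lie above the array median of 3.137 in level, and Anxa2 and Anxa3 lie outside the dense band of genes around 0.

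The other annexin genes of the array, Anxa8, Anxa9, Anxa10 and Anxa13, are known mostly from epithelia. Of these 4, Anxa9 was higher in KO, 0 were lower and 3 did not pass (14.3% of all genes passed). The median difference was 0.12. Anxa9 read 3.391 and 3.731 in WT and 4.075 and 4.310 in KO, a difference of 0.63 ± 0.15 (adjusted p = 0.0401). Anxa9 was not past the test without WT replicate 1 (adjusted p = 0.142), without KO replicate 1 (0.0899) or without KO replicate 2 (0.198). Anxa8, Anxa10 and Anxa13 were below the array median on all 4 arrays, at 2.26 or less.

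Among 8 S100 and EF-hand partners of annexins, S100a1 and S100a6 were higher in KO, 0 were lower and 6 did not pass. Of all genes 14.3% passed. The median difference of the partners was 0.03. S100a10, which encodes the partner of annexin A2, read 10.41 and 10.47 in WT and 10.22 and 10.06 in KO. Its KO arrays were lower, but the difference of -0.30 ± 0.11 was not past the test (adjusted p = 0.128; 0.0112 with an intensity trend). The 95% intervals of S100a10 (-0.56 to -0.04) and of Anxa2 (-1.63 to -1.10) did not overlap, and the difference between them was not tested. S100a11, which encodes a partner of annexin A1, read 11.04 and 11.05 in WT and 10.78 and 10.80 in KO (-0.26 ± 0.09; adjusted p = 0.143). The sorcin gene Sri (-0.06 ± 0.09) and Pdcd6, which encodes ALG-2 (0.06 ± 0.10), were close in the groups. S100a4, S100a11, Sri and Pdcd6 were chosen here after their values were seen.

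**Figure D4:**
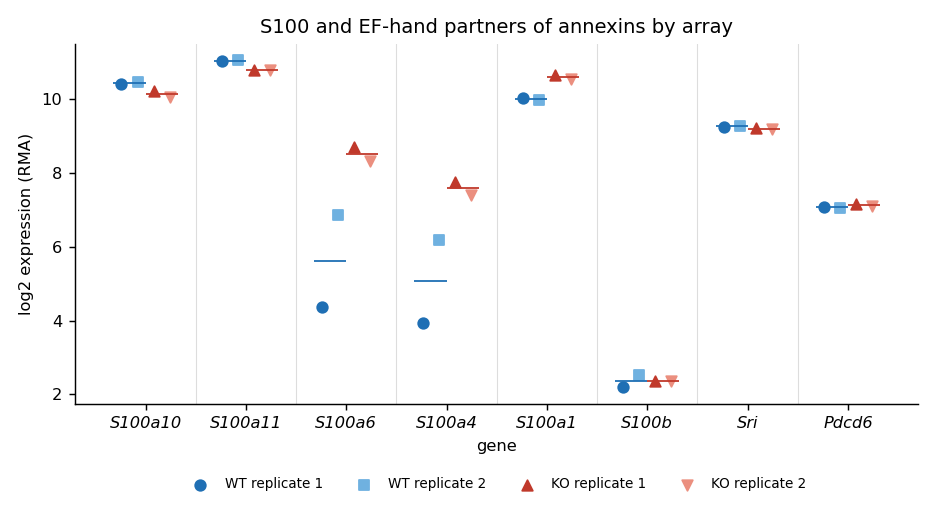
Log2 expression of 8 S100 and EF-hand partner genes (horizontal axis) on each of 4 arrays, with WT in blue, KO in red and a short line at each group mean. S100a6 and S100a4 show WT replicate 2 between WT replicate 1 and the KO arrays, and S100a10 and S100a11 lie slightly lower in KO.

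S100a6 encodes calcyclin, which binds several annexins. It read 4.369 in WT replicate 1 and 6.862 in WT replicate 2, and 8.695 and 8.321 in KO. The WT arrays were far apart, and the rise of 2.89 ± 0.72 had an adjusted p of 0.0481, with 0.215 without KO replicate 1 and 0.168 without KO replicate 2. The difference was 1.65 without WT replicate 1 and 4.14 without WT replicate 2. S100a4, which encodes a partner of annexin A2, had the same order of arrays, with 3.941 and 6.179 in WT and 7.760 and 7.406 in KO (2.52 ± 0.65; adjusted p = 0.0534). It was past the test without WT replicate 1 (1.40; adjusted p = 0.00601) and without WT replicate 2 (3.64; adjusted p = 0.000118), in fits with a single WT array. S100a1 read 10.04 and 9.972 in WT and 10.66 and 10.55 in KO, a rise of 0.60 ± 0.10 (adjusted p = 0.0118; 0.0784 without KO replicate 1).

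For Anxa3, S100a6 and S100a4 alike, WT replicate 2 lay closer to KO than WT replicate 1 did. This was common on these arrays: WT replicate 2 lay on the KO side of WT replicate 1 for 71.1% of the 1391 genes higher in KO and for 66.9% of the 1289 genes lower in KO. Anxa6 shared it with a smaller gap between the WT arrays, 0.19. Anxa2 did not share it, with equal WT values. Anxa3 was past the test without WT replicate 2 and without WT replicate 1, as given above.

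**Figure D5:**
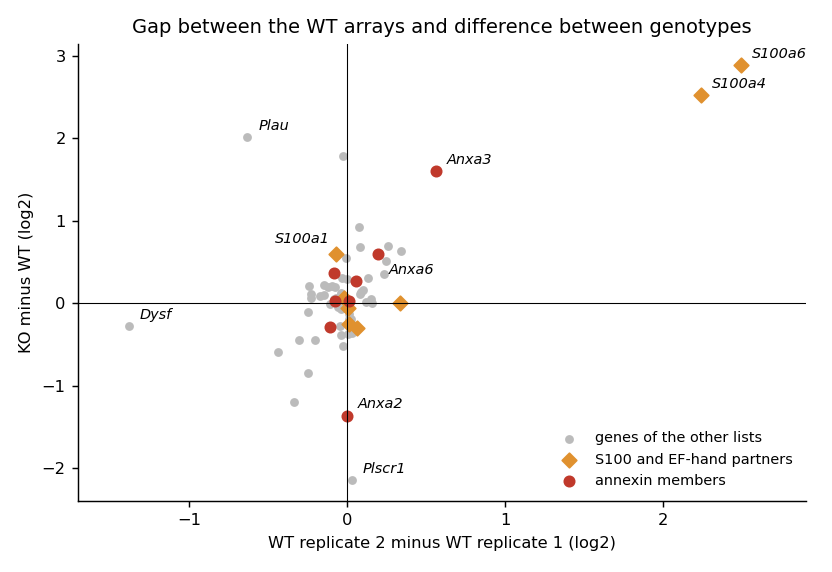
Gap between the WT arrays (replicate 2 minus replicate 1, horizontal axis) against KO minus WT (vertical axis), both log2, for annexin members, their partners and the genes of the other lists, without Cpne5, which lies at -0.97 and -5.53. S100a6, S100a4 and Anxa3 sit to the upper right, and Anxa2 sits at a WT gap of 0.

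Annexin A1 signals through formyl peptide receptors, whose main genes, Fpr1, Fpr2 and Fpr3, were not analysed here. Of 3 measured relatives, 0 passed limma's test and 1 had an unadjusted p under 0.05, as did 5006 of all 18782 genes. All 3 were below the array median on every array. Fpr-rs4 differed by -0.44 ± 0.13 (adjusted p = 0.073) and Fpr-rs3 by 0.16 ± 0.10 (adjusted p = 0.401), and near-identical family members make such probe sets uncertain.

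Of 8 glucocorticoid response genes, Klf9 was higher, Nr3c1 was lower and 6 were not past the test (14.3% of all genes were). The median difference was 0.18. Nr3c1, which encodes the glucocorticoid receptor, read 7.963 and 7.760 in WT and 7.377 and 7.440 in KO (-0.45 ± 0.11; adjusted p = 0.0449). Klf9, a zinc-finger factor induced by glucocorticoids, read 6.312 and 6.302 in WT and 6.817 and 6.900 in KO (0.55 ± 0.10; adjusted p = 0.0138). Neither was past the test without WT replicate 1, KO replicate 1 or KO replicate 2, with adjusted p from 0.142 to 0.190 for Nr3c1 and from 0.0553 to 0.0843 for Klf9.

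The genes of plasminogen activation, the reaction that annexin A2 and S100A10 assist at the cell surface, included large changes. Of 7 measured, Plat and Plau were higher, Serpinf2 was lower and 4 were not past the test (14.3% of all genes were). The median difference was 0.10. Plau, which encodes urokinase, rose 4.03-fold, from 5.304 and 4.673 in WT to 7.175 and 6.827 in KO (2.01 ± 0.23; adjusted p = 0.0026). Plat, which encodes tissue plasminogen activator, rose from 2.730 and 2.705, below the array median, to 4.728 and 4.272 (1.78 ± 0.16; adjusted p = 0.0012). Serpinf2, which encodes the plasmin inhibitor antiplasmin, fell by 1.19 ± 0.20 (adjusted p = 0.0122; 0.0537 without KO replicate 1). The urokinase receptor gene Plaur, chosen after its values were seen, had a mean of 10.35 in both groups, with an interval of the difference from -0.26 to 0.26. Anxa2 was lower on the same arrays on which both activator genes were higher.

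Of 17 genes of membrane repair and the ESCRT machinery, 1 was higher, 2 were lower and 14 did not pass (14.3% of all genes passed). The median difference was -0.015. Capn1 and Capn2 encode calpains, the calcium-activated proteases that cut cytoskeletal anchors at a wound. Capn1 read 9.346 and 9.097 in WT and 8.376 and 8.383 in KO, a fall of 0.84 on the log2 scale (SE 0.12; adjusted p = 0.0058). Capn2 read 8.992 and 8.964 in WT and 8.542 and 8.366 in KO (-0.52 ± 0.11; adjusted p = 0.0231), and was not past the test when any 1 array was left out (0.0566 to 0.121). Smpd1, which encodes acid sphingomyelinase, read 6.771 and 6.854 in WT and 7.532 and 7.444 in KO (0.68 ± 0.10; adjusted p = 0.0072; 0.0566 without KO replicate 1).

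Annexins bind phosphatidylserine where it is exposed. Of 6 measured genes of its exposure and return, 2 were higher, 1 was lower and 3 were not past the test (14.3% of all genes were). The median difference was 0.07. Plscr1, which encodes a calcium-binding scramblase family protein, showed a 4.43-fold decrease, from 9.389 and 9.419 in WT to 7.333 and 7.183 in KO (-2.15 ± 0.10; adjusted p = 1.23e-04). Atp11a, a flippase gene, read 6.480 and 6.741 in WT and 7.345 and 7.257 in KO (0.69 ± 0.12; adjusted p = 0.0144). Xkr8, a caspase-activated scramblase gene, read 4.273 and 4.519 in WT and 4.948 and 4.872 in KO (0.51 ± 0.12; adjusted p = 0.0364). Neither Atp11a (0.0548 to 0.0937) nor Xkr8 (0.124 to 0.171) was past the test without WT replicate 1 or without either KO array.

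Copines are another family of calcium-dependent phospholipid binders. Of 8 measured, Cpne2 was higher, Cpne5 was lower and 6 were not past the test (14.3% of all genes were). The median difference was -0.01. Cpne5 read 8.633 and 7.665 in WT and 2.751 and 2.495 in KO, below the array median, a difference of -5.53 ± 0.30 (adjusted p = 1.96e-04). Cpne2 read 3.102 and 3.178 in WT and 4.234 and 3.886 in KO (0.92 ± 0.14; adjusted p = 0.0077). Of these 8 copines 4 were below the array median on all 4 arrays, as were Anxa8, Anxa10 and Anxa13 and none of the 8 annexins chosen.

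By Euclidean distance between profiles over the 4 arrays, each centred on its mean, the genes closest to Anxa3 were Gkap1 (0.09), Arrdc3 (0.11) and Cmtm7 (0.11). Those closest to Anxa2 were Shc3 (0.06), Aspm (0.08) and Ager (0.09). With 4 arrays in 2 groups this measure mostly matches the size of the difference, and it is a description of these arrays.

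Some markers of other cells were past the test, as were 14.3% of all genes, and the lists did not move alike. Of 4 measured monocyte markers 4 were higher in KO, with a mean log2 level over the list of 3.40 to 3.70 in WT and 4.98 to 5.07 in KO. Of 5 neutrophil markers S100a8 and Mmp8 were higher and Csf3r was lower, with list means of 4.86 to 5.04 in WT and 5.84 to 5.93 in KO. Mmp8 read 6.397 and 7.779 in WT and 9.824 and 9.877 in KO, S100a8 read 3.653 and 3.428 in WT and 5.700 and 5.223 in KO, and S100a9 read 2.390 and 2.524 in WT and 3.305 and 2.742 in KO. Of 7 alveolar epithelial markers Hopx was higher and Ager lower, with list means of 4.27 to 4.49 in WT and 4.44 to 4.53 in KO, and Sftpc read between 2.989 and 4.267. Of 5 dendritic cell markers Cd209a was higher and 4 overlapped between the groups. The list means were 3.01 to 3.24 in WT and 3.36 to 3.66 in KO. The lists for eosinophils (4 of 4 genes), NK cells (3 of 3) and fibroblasts (3 of 4) lay below the array median on every array in the numbers given. So did 2 of 3 T cell, 1 of 2 B cell and 2 of 4 endothelial markers. Of the 20 genes of these 6 lists 0 were past limma's test and 1 had an unadjusted p under 0.05. In the same fit 5006 of all 18782 genes had such a p. Most of the 20 were dim, so these counts do not show whether those cells were absent. The part of monocyte, neutrophil, epithelial or dendritic cell signal in the annexin differences was not tested.

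The labels were set beside the arrays. Pparg differed by -0.06 ± 0.10 (adjusted p = 0.790), but the position of its probes is not known here, and they may lie outside the deleted exons, so this level checks neither genotype. The CD11b gene Itgam differed by 5.76, higher in KO as gated. Itgax and Siglecf were also counted as genes of the sort gate, so the levels of these genes do not check the labels independently. Of 7 alveolar macrophage markers, Siglecf (-3.27) and Mrc1 (-0.44) were lower and 5 did not pass. Of those, Itgax, Chil3, Car4 and Plet1 were above 10 on all 4 arrays. Marco, which did not pass either, read 7.220 and 4.433 in WT and 3.042 and 3.373 in KO (-2.62 ± 0.80; adjusted p = 0.0897). For 5 of the 7 both KO arrays lay below both WT arrays, as for 30.0% of all genes. The median difference of the list was -0.315. Across genes the WT arrays correlated at 0.995, the KO arrays at 0.996 and arrays of different genotype at 0.967 to 0.975.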

How the data were processed

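Per the submitters' processing notes, the authors made the deposited log2 values with RMA in R 2.15.2, which subtracts background, equalises the arrays' distributions and summarises each probe set. Its settings and the build are not given in the sources used. The 28371 probe sets ran from 0.96 to 12.11, with a median of 3.137 over all values of the 4 arrays. The sorted arrays differed by at most 0.012, so a shift of most transcripts would not be seen. The platform annotation gave 21158 probe sets 1 gene symbol, 1881 several and 5332 none. Only those with 1 symbol were used, the brightest by mean over 4 arrays per gene, which left 18782 genes. Of the Entrez identifiers 21128 matched the reference table, and 0 symbols changed.

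The groups were tested with limma 3.58.1 (R 4.3.3), with group as the only term (2 residual and 4.16 prior degrees of freedom), two-sided, adjusted over all genes. An exact permutation of 2 against 2 arrays cannot reach the threshold, so none was run. Each replicate is a pool of 2 mice, and the number of arrays limits precision. In a simulation with changes of known size, 1 of 67 changed genes was called at a log2 difference of 0.5. At 1 it was 34 of 67, and at 2 it was 59 of 66. Of 18582 unchanged genes 0 were called. Most changes of 0.5 were missed there. Far fewer genes were changed in the simulation than the 2680 called in the data. Its adjusted threshold was therefore stricter, and these shares do not carry over to the data. A gene that was not past the test is still not shown to be unchanged. This covers Anxa1, Anxa7, Anxa11 and S100a10, whose differences were smaller than 0.5 in size. Members and lists were chosen with earlier results of these data known. Named are all members, up to 4 genes past the test per list by p (or 2 where none passed), S100a10, and the 3 genes nearest to the most raised and most lowered member. Alternatives were other normalization, centring, filtering, variance model, probe set choice, a least difference, the replicate number as a block and leaving out each array.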

Additional observations from a re-analysis of the deposited data

How the results depend on the processing

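No member reversed its direction with a call under any alternative, and of 96 values of the 8 annexins over 12 alternatives 85 kept their side of the threshold. Some of these could hardly move. Quantile normalization changed little on arrays already equalised, and a member not past the test could hardly pass against a least difference. Of the called members, Anxa2 and Anxa3 kept their side in 11 of 12 alternatives, and Anxa6 in 6 of 12. Without moderation of the variance 0 of all genes were past the test in either direction (3635 at an unadjusted p under 0.05), and the counts of higher and of lower annexins were 0 and 0 (6 members at an unadjusted p under 0.05). The counts for other annexins, S100 and EF-hand partners, glucocorticoid response, plasminogen activation, membrane repair, phosphatidylserine exposure and copines were then 0 each, with 0, 3, 2, 2, 5, 4 and 2 at an unadjusted p under 0.05. Against a least difference of 0.5, 498 genes were higher and 336 lower, with 1 annexin higher (Anxa3) and 1 lower (Anxa2). Of the lists, 2 plasminogen genes, 1 gene of phosphatidylserine exposure and 1 copine then passed. For other annexins, partners, glucocorticoid response genes and membrane repair genes the count was 0 each. The fit without moderation has 2 residual degrees of freedom per gene, and the least difference sets a stricter test. With an intensity trend more of all genes passed, 1667 higher and 1592 lower. In that fit 3 annexins were higher and 2 lower, and 5 partners, 1 formyl peptide receptor gene and 6 membrane repair genes passed. With the mean of all probe sets 1404 genes were higher and 1305 lower. Only 1 annexin was then higher, because Anxa6 has a second dim probe set. Median centring gave 5 membrane repair genes, with 1288 of all genes higher and 1506 lower. The cause of that count was not tested. Over the 12 alternatives adjusted p ran from 8.71e-06 to 0.159 for Anxa2, from 2.25e-04 to 0.218 for Anxa3, from 0.0031 to 1.0 for Anxa6, from 0.0119 to 1.0 for Anxa1, from 0.0367 to 1.0 for Anxa7 and from 0.0151 to 1.0 for Anxa11.

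Replicate numbers are shared by the groups, and deviations of same-numbered arrays correlated at -0.02 across genes. This value shows no shared deviation, but cannot tell whether same-numbered arrays were collected or processed together. With the number as a block 1309 genes were higher and 1168 lower, 1 glucocorticoid response gene passed, and Anxa2, Anxa3 and Anxa6 stayed past the test. When 1 array was left out, 726 to 1227 genes were higher and 647 to 1057 lower, with 1 to 2 annexins higher and 1 to 1 lower. The lists gave 0 to 1 other annexins, 0 to 3 partners, 0 to 1 formyl peptide receptor genes, 0 to 2 glucocorticoid response genes, 2 to 3 plasminogen genes, 1 to 4 membrane repair genes, 1 to 3 genes of phosphatidylserine exposure and 2 to 2 copines. In these fits the lone array of a group is assumed to vary like the other group.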
